A study of Mus musculus with 4 samples.

Results

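The genes described here are the Wnt ligands, the Frizzled receptors with their co-receptors Lrp5 and Lrp6, the secreted antagonists of the Sfrp, Dkk, Frzb and Wif1 type, and 4 intracellular genes of the pathway (Axin1, Axin2, Lef1 and Tcf7). They were picked by gene name, which gave 45 genes carried by 60 probes and 69 spots, out of 41174 probes and 43379 spots on each array. RNA came from sub-lines of 4T1, a mammary carcinoma line that arose in a BALB/c mouse. The tested sub-line was 4T1-S, which the title of the study describes as strongly immunogenic, and it was set against the sub-line 4T1-A. Each was measured on 2 one-colour Agilent arrays, and the labels give no treatment, time or passage for either.

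Wnt proteins are secreted, lipid-modified ligands that bind Frizzled receptors together with Lrp5 or Lrp6. Binding of some ligands stops the Axin and Apc complex from marking beta-catenin for breakdown, and beta-catenin then acts with Tcf and Lef factors at target genes. Other ligands act through Frizzled without beta-catenin. Secreted Frizzled-related proteins hold Wnt ligands outside the cell and Dickkopf proteins occupy Lrp5 and Lrp6. In the mammary gland the pathway is known for branching, for stem cell activity and for the tumours that mouse mammary tumour virus starts by inserting next to Wnt genes.

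Levels are given as scaled intensity, the processed intensity of a probe divided by the 75th percentile of its array. The sub-lines were compared within a probe. Levels of different probes were set together only to pick a gene's brightest probe and in the sums of cell type markers. A difference is the mean log2 level in 4T1-S less that in 4T1-A, with the standard error (SE) of limma's fit to 2 arrays per sub-line. The filter on background kept a probe if both replicates of 4T1-S, or both of 4T1-A, were flagged well above it. This gave 23691 tested probes, and a call means an adjusted p under 0.05 over all of them. Nothing in the labels states if replicate arrays stand for separate cultures, and the p-values therefore cover the spread among 4 arrays, which may be technical. Each sub-line held its own positions on 1 slide, scanned once, so position and sub-line cannot be told apart.

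The arrays had between 58.2 and 59.2 percent of their spots well above background in 4T1-S, against 54.9 and 56.3 percent in 4T1-A. Replicate arrays correlated at r = 0.991 in each sub-line, across probes that are not independent replicates. Limma called 1070 probes, 513 higher and 557 lower. Scaling to the median gave 225 higher and 1162 lower, quantile normalization 307 and 581, and cyclic loess 269 and 692. The median difference over the tested probes was 0.11, and it depended on level: it was 0.58 over 852 probes with a mean log2 level under -4, 0.39 over 5184 probes between -4 and -3, and between 0.0036 and 0.034 in each band above -2. The median difference of the 500 tested probes nearest in level is therefore given beside dim genes, as the local median. The 5 epithelial markers were above background on all 4 arrays, with Krt8 at 130 and 127 in 4T1-S, against 139 and 155 in 4T1-A, and Epcam at 0.181 and 0.177 in 4T1-S, against 2.12 and 2.86 in 4T1-A. Limma called Epcam (difference -3.78, adjusted p = 0.000127), Krt19 (-2.61, adjusted p = 0.00276) and Cdh1 (-1.11, adjusted p = 0.0198) lower, and not Krt8 or Krt18. The 3 endothelial markers were above background on no array. Of 5 fibroblast markers, 2 were above background on all arrays and Lum on none. The levels of each marker's brightest probe, summed, were 1.24 on both 4T1-S arrays, against 0.604 and 0.807 in 4T1-A. Most of this sum was Pdgfra, at 0.780 and 0.758 in 4T1-S, against 0.324 and 0.529 in 4T1-A (not called). Col1a1, at 0.112 and 0.149 in 4T1-S, against 0.0271 and 0.0416 in 4T1-A (not well above background), was the fibroblast marker called higher, at least 2.59-fold (adjusted p = 0.00794). Of 5 leukocyte markers 4 were above background on all arrays, and Ptprc on 1 array of 4T1-S and none of 4T1-A. Their summed level was 0.471 and 0.555 in 4T1-S, against 0.392 and 0.403 in 4T1-A, and the part of other cell types in the results below was not tested. In these bulk samples, fewer cells of a type and less RNA per cell cannot be told apart.

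In 4T1-S, the ligands Wnt10a and Wnt11 were higher than in 4T1-A, and the secreted antagonist Sfrp1 was much lower. The ligand Wnt6 was higher at both tested probes, of which the brighter was not called. The family was put together with the differences between these sub-lines in view, so its values are a description and carry no test of their own. Of its 60 probes, 33 probes of 27 genes passed the filter on background, and 27 probes of 23 genes were above background on all 4 arrays. The other 6 tested probes passed through 4T1-S alone. They were those of Wnt4, Wnt16 and Fzd8, above background on no array of 4T1-A, and those of Wnt10b and the dimmer probes of Wnt6 and Lef1, above it on 1. Limma called 4 of the 33 probes higher (Wnt10a, Wnt11 and the dimmer probes of Wnt6 and Fzd3, that of Wnt6 being 1 of the 6), where 2.17 percent of all tested probes were called higher, and 1 lower, where 2.35 percent were (4.52 percent in either direction). In 20 probes both 4T1-S arrays lay above both 4T1-A arrays (37.8 percent of all tested probes), in 5 they lay below (18.7 percent), and in 8 the sub-lines overlapped. These 20 took in all 6 probes that passed through 4T1-S alone, which the filter favoured to read higher there. A difference of at least 2-fold was seen in 6 probes higher (2.24 percent of all) and 1 lower (2.62 percent of all). Of those higher, Wnt10b and the dimmer Wnt6 probe had passed through 4T1-S alone. A mean log2 level under -2 was found in 17 of the 33 probes. There the median difference over all tested probes was at least 0.12 in each band. In 22 of the 33 probes the difference was above the local median.

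**Figure D1:**
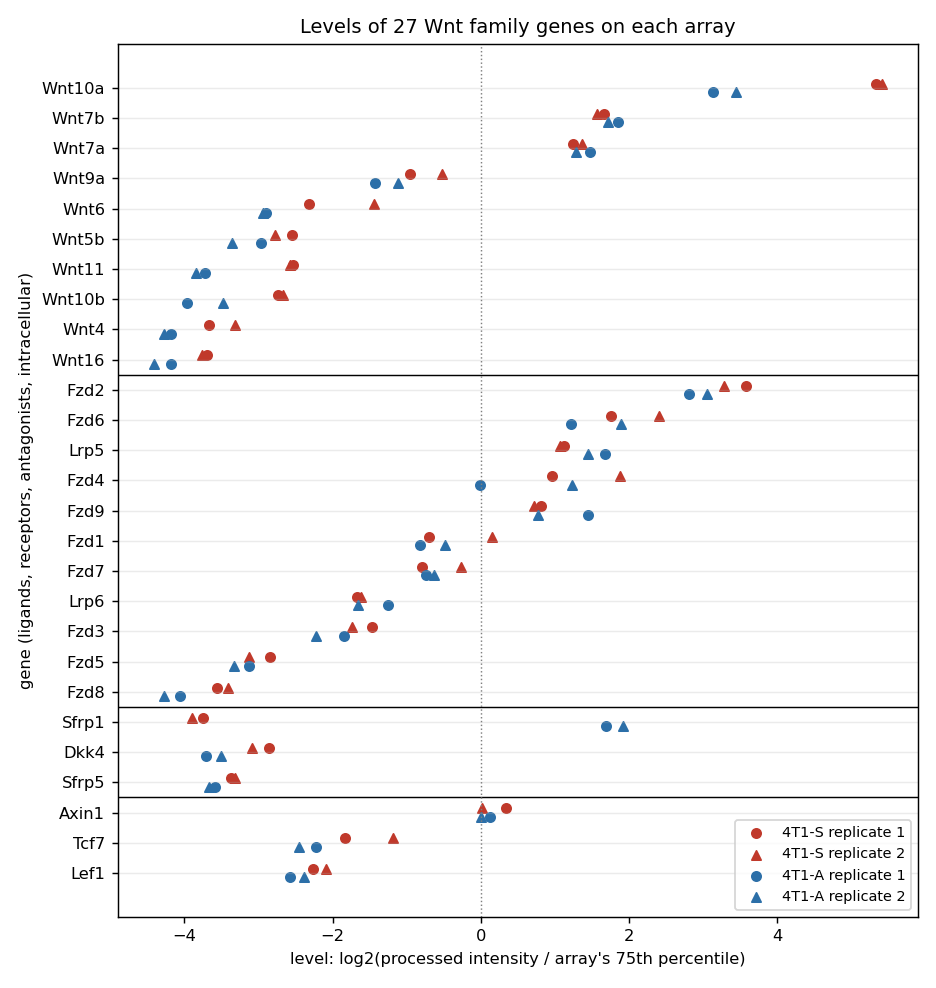
Level of the brightest probe of each of 27 genes on each array, as log2 of scaled intensity (horizontal axis), with genes grouped by role from top to bottom; red points are 4T1-S, blue points 4T1-A, circles replicate 1 and triangles replicate 2. Sfrp1 has both 4T1-S arrays far to the left of both 4T1-A arrays, and Wnt10a has them to the right. Positions can be compared within a gene and not between genes.

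The ligands whose brightest probe was tested and differed by at least 2-fold were Wnt10a, Wnt11, Wnt6 and Wnt10b. The promoters of Wnt11, Wnt6 and Wnt10b, which matched the promoter table, are printed for that reason; Wnt10a and Sfrp1 did not match it. Sequences are from RefSeq, build GRCm38.p6, and run 5′ to 3′ on the gene's strand from 250 bases before to 50 bases after the annotated start. Capitals mark CTTTGA, the core letters to which Tcf and Lef factors are known to bind, on either strand, so TCAAAG is marked as well. The Wnt11 window is chr7:98834862-98835161 (+), the Wnt6 window chr1:74771642-74771941 (+) and the Wnt10b window chr15:98778101-98778400 (−).
Wnt11: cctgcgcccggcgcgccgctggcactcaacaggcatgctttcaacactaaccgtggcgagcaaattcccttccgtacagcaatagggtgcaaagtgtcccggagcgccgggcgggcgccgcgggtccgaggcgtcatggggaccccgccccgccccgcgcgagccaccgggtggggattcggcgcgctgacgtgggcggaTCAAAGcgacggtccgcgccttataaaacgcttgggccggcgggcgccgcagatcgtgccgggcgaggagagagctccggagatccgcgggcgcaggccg
Wnt6: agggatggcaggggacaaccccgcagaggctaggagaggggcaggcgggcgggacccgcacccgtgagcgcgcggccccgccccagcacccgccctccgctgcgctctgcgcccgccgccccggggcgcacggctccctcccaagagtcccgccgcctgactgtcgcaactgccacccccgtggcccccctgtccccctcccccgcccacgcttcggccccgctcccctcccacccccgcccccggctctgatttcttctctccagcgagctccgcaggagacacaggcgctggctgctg
Wnt10b: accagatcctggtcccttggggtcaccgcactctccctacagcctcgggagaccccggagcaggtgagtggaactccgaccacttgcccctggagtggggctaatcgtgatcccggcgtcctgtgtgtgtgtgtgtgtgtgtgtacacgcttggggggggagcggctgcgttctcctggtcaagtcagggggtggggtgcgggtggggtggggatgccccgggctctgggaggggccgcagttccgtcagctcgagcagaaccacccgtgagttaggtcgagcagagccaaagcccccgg

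The Wnt11 window held the motif once, 50 bases before the start, and there it was part of the longer form CTTTGATC on the reverse strand. The longer form contains CTTTGA, so both describe the same bases. The window of another annotated Wnt11 start, chr7:98838595-98838894, held the motif 0 times and had 23 CpG dinucleotides. The Wnt6 and Wnt10b windows did not hold these letters. Family promoters on chromosome 18, where Fzd8 and Wnt8a lie, were left out of the family's counts. The counts over all promoters were not filtered in this way. Of the 45 genes, 30 on other chromosomes matched the promoter table with 37 promoters. Of these promoters 6 (16.2 percent) held CTTTGA, against 16 percent of all 32851 promoters of the same length. Over all promoters, 0.938 percent held CTTTGATC. The other genes with the motif were Frzb, Lef1, Fzd1, Wnt5b and Dkk1. A Wnt5b promoter held the longer form CTTTGATC as well. The family's promoters had a median of 24 CpG dinucleotides, against 7 over all promoters. The Wnt11 window held 45 CpG dinucleotides, a number that 1.93 percent of all promoters reached, and the Wnt6 and Wnt10b windows held 31 and 18. A match of letters is a description, not a bound site.

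The ligands showed the largest differences upwards. Of 19 ligand genes, 10 were tested with 12 probes, whose median difference was 0.65, and 4 of these probes passed the filter through 4T1-S alone. Limma called 3 of these probes higher, where 2.17 percent of all tested probes were. In 9 probes both 4T1-S arrays lay above both 4T1-A arrays, as in 37.8 percent of all tested probes. The median of the ligand probes' local medians was 0.22. The 4 probes that passed through 4T1-S alone were favoured by the filter to read higher there.

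Wnt10a, a ligand known from skin, hair and tooth development, had a scaled intensity of 40.3 and 42.7 in 4T1-S, against 8.75 and 10.9 in 4T1-A. The sub-lines did not overlap, and each pair of arrays lay close together. The difference was 2.09 (SE 0.20), which is 4.25-fold higher, and the local median was 0.017. The call was kept in each of 14 alternative settings, where the difference lay between 1.80 and 2.25.

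Wnt6, whose gene lies next to Wnt10a on chromosome 1, had 2 tested probes. The brighter one read 0.201 and 0.370 in 4T1-S, against 0.134 and 0.130 in 4T1-A, a difference of 1.04 (SE 0.29) that was not called and lay between 0.61 and 1.48 when single arrays were left out. The dimmer one read 0.179 and 0.249 in 4T1-S, against 0.0573 and 0.0589 in 4T1-A, a difference of 1.86 (SE 0.22). Both probes put 4T1-S above 4T1-A, and the 4T1-S arrays stood further apart than the 4T1-A arrays. The dimmer probe was above background on 1 of the 2 arrays of 4T1-A and so was tested through 4T1-S alone. It was 3.63-fold higher, with a local median of 0.35, and its call was kept without any single array and lost without the filter on background.

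Wnt11, a ligand known for signalling without beta-catenin during cell movements of the embryo, read 0.173 and 0.168 in 4T1-S, against 0.0757 and 0.0694 in 4T1-A. The arrays did not overlap. The difference was 1.23 (SE 0.19), or 2.35-fold, with a local median of 0.34. The call was lost without 4T1-S replicate 1 (difference 1.21), without 4T1-S replicate 2 (1.26), with normexp background correction (0.68) and without the filter on background.

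Wnt10b, the other member of the Wnt10 pair and a known insertion site of mouse mammary tumour virus, read 0.149 and 0.157 in 4T1-S, against 0.0640 and 0.0895 in 4T1-A. The sub-lines did not overlap, and 1 of the 2 arrays of 4T1-A was above background. The difference was 1.02 (SE 0.22) with a local median of 0.35, and it was not called. It was called without 4T1-A replicate 2, with 1 probe per gene and with intensity trend and robust fitting.

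Wnt4, the ligand of side branching in the mammary gland, read 0.0791 and 0.100 in 4T1-S, against 0.0554 and 0.0517 in 4T1-A, both not well above background. It was 1.66-fold higher, a difference of 0.73 (SE 0.21) with a local median of 0.47. Wnt16, a ligand known from bone, read 0.0771 and 0.0736 in 4T1-S, against 0.0554 and 0.0473 in 4T1-A, again not well above background. Neither gene's arrays overlapped and neither was called. For Wnt16 the bound was 1.45-fold, and its difference of 0.56 (SE 0.20) was close to the local median of 0.55.

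The remaining ligands differed less. Wnt9a, known from joint formation, read 0.518 and 0.697 in 4T1-S, against 0.372 and 0.462 in 4T1-A, a difference of 0.54 (SE 0.23) without overlap that was not called. The probes of Wnt5b, a relative of Wnt5a, disagreed in sign. The brighter one read 0.172 and 0.146 in 4T1-S, against 0.128 and 0.0980 in 4T1-A (difference 0.50, SE 0.22), and the dimmer one 0.112 and 0.127 in 4T1-S, against 0.154 and 0.139 in 4T1-A (difference -0.29, SE 0.19). No direction is given for that gene. Wnt7a read 2.37 and 2.58 in 4T1-S, against 2.78 and 2.45 in 4T1-A, and its arrays overlapped (difference -0.08, SE 0.19). Wnt7b read 3.17 and 2.97 in 4T1-S, against 3.61 and 3.27 in 4T1-A (difference -0.17, SE 0.19). Neither was called, and the Wnt7b arrays of 4T1-S lay slightly below those of 4T1-A.

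The other 9 ligand genes were not tested. Wnt8a and Wnt8b were above background on 1 array, and Wnt1, Wnt2, Wnt2b, Wnt3, Wnt3a, Wnt5a and Wnt9b on no array. Wnt1, the first of the mammary tumour virus insertion genes, was spotted 10 times per array, and 0 of the 10 spots were above background on any of the 4 arrays.

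**Figure D2:**
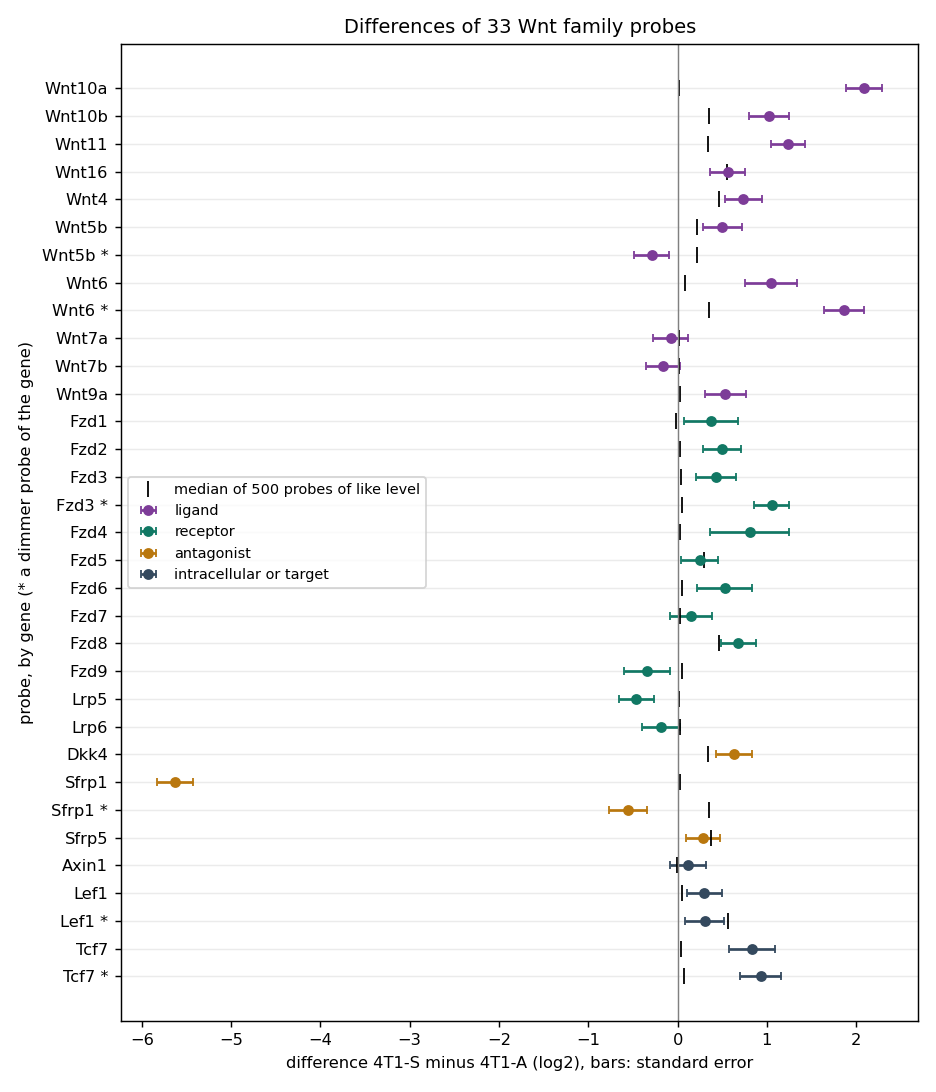
Difference between 4T1-S and 4T1-A (log2, horizontal axis) for each of 33 tested probes, with bars of 1 standard error, coloured by role; an asterisk marks a dimmer probe of a gene and the black tick the median difference of 500 tested probes of like level. The brighter Sfrp1 probe lies at -5.63, the dimmer one at -0.56 and Wnt10a at 2.09, while the dim probes of Wnt16, Fzd5 and Sfrp5 lie near their ticks.

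Among the receptors, 1 probe of Fzd3 was called higher. Of 12 receptor genes, 11 were tested with 12 probes, whose median difference was 0.40. Both 4T1-S arrays lay above both 4T1-A arrays in 5 probes (37.8 percent of all tested probes). They lay below in 1 (18.7 percent of all), and the sub-lines overlapped in 6. Among the 5 was the tested Fzd8 probe, which passed the filter through 4T1-S alone. Over all tested probes, 2.17 percent were called higher. Fzd10 was above background on no array.

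Fzd3, a Frizzled known from axon guidance and planar polarity, had the called probe. Its brighter probe read 0.362 and 0.299 in 4T1-S, against 0.278 and 0.215 in 4T1-A, a difference of 0.43 (SE 0.22) that was not called. Its dimmer probe read 0.306 and 0.275 in 4T1-S, against 0.149 and 0.131 in 4T1-A, a difference of 1.06 (SE 0.20) or 2.08-fold. Both probes put 4T1-S above 4T1-A without overlap. The call of the dimmer probe was lost without 4T1-A replicate 2 or either 4T1-S array, with scaling to the median, with normexp and without the filter on background. A further probe, which the array lists under an older clone name and which RefSeq pairs with Fzd3, read 0.498 and 0.489 in 4T1-S, against 0.289 and 0.279 in 4T1-A (difference 0.80, SE 0.19, not called).

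Fzd4, the receptor of norrin and of several Wnts in blood vessels, read 1.95 and 3.67 in 4T1-S, against 0.995 and 2.35 in 4T1-A. The difference was 0.81 (SE 0.44), the arrays overlapped, and the value lay between 0.18 and 1.43 when single arrays were left out. Fzd6, known from hair patterning, read 3.40 and 5.29 in 4T1-S, against 2.33 and 3.72 in 4T1-A, and it also overlapped (difference 0.53, SE 0.30). In both genes replicate 2 was above replicate 1 in each sub-line. Fzd2 read 12.0 and 9.71 in 4T1-S, against 6.99 and 8.33 in 4T1-A, a difference of 0.50 (SE 0.21) without overlap that was not called.

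Fzd8 read 0.0849 and 0.0942 in 4T1-S, against 0.0599 and 0.0519 in 4T1-A (not well above background). The difference was 0.68 (SE 0.20), or 1.60-fold, with a local median of 0.46. Fzd5 read 0.139 and 0.115 in 4T1-S, against 0.114 and 0.0992 in 4T1-A, a difference of 0.25 (SE 0.21) with a local median of 0.29. Fzd1 read 0.615 and 1.11 in 4T1-S, against 0.567 and 0.719 in 4T1-A (difference 0.37, SE 0.30). None of these probes was called, and the Fzd1 arrays overlapped. Fzd7 read 0.575 and 0.831 in 4T1-S, against 0.601 and 0.646 in 4T1-A (difference 0.15, SE 0.23), with overlap. The signs of Fzd5 and Fzd7 turned with scaling to the median, and that of Fzd5 also with cyclic loess. A further probe that RefSeq pairs with Fzd5 had a difference of -0.38 (SE 0.19).

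The co-receptors Lrp5 and Lrp6, and Fzd9, had differences below 0 that were not called. Lrp5 read 2.18 and 2.10 in 4T1-S, against 3.19 and 2.73 in 4T1-A, the 1 receptor probe in which both 4T1-S arrays lay below both 4T1-A arrays (difference -0.46, SE 0.19, not called). Lrp6 read 0.314 and 0.327 in 4T1-S, against 0.419 and 0.317 in 4T1-A, with overlap (difference -0.19, SE 0.21). Fzd9 read 1.75 and 1.65 in 4T1-S, against 2.74 and 1.71 in 4T1-A, a difference of -0.35 (SE 0.26) with overlap that rested on 1 array of 4T1-A.

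Sfrp1, a secreted protein with a Frizzled-like domain that binds Wnt ligands, gave the largest difference of the family. Its brighter probe read 0.0744 and 0.0673 in 4T1-S, against 3.23 and 3.80 in 4T1-A. The sub-lines were far apart, and the 4T1-S arrays lay near background while counted as above it. The difference was -5.63 (SE 0.20), 49.5-fold lower, and it was called in all 14 alternative settings, with a size that depended on the background correction (-3.96 with normexp). The gene's dimmer probe read 0.0907 and 0.0703 in 4T1-S, against 0.109 and 0.127 in 4T1-A, a difference of -0.56 (SE 0.22) where the local median was 0.35. Both probes put 4T1-S below 4T1-A, and they differed in the size of the difference by more than 1 on the log2 scale.

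Of the 10 antagonist genes, 3 were tested with 4 probes (median difference -0.14). Limma called 1 of these, the brighter Sfrp1 probe, lower, where 2.35 percent of all tested probes were. Dkk4, which binds Lrp5 and Lrp6, read 0.138 and 0.118 in 4T1-S, against 0.0764 and 0.0880 in 4T1-A, a difference of 0.64 (SE 0.20) with a local median of 0.34. Sfrp5, a relative of Sfrp1, read 0.0969 and 0.100 in 4T1-S, against 0.0834 and 0.0786 in 4T1-A. Its difference of 0.28 (SE 0.19) was below the local median of 0.37, and its sign turned with scaling to the median and with cyclic loess. Dkk1 and Dkk3 were above background on some arrays without passing the filter, and Dkk2, Frzb, Sfrp2, Sfrp4 and Wif1 were above background on none.

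**Figure D3:**
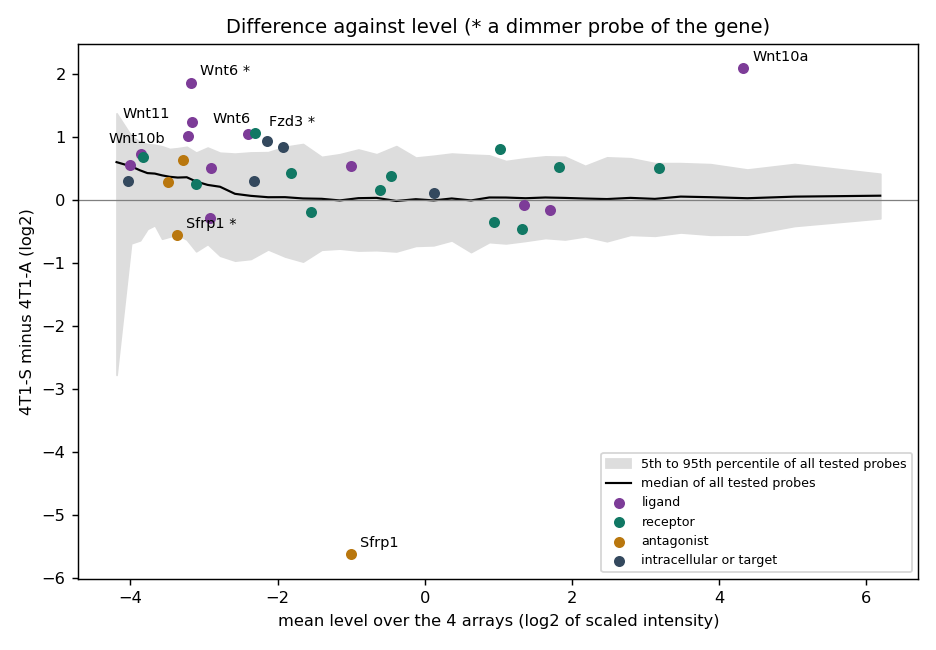
Difference between 4T1-S and 4T1-A (log2, vertical axis) against the mean level over the 4 arrays (log2 of scaled intensity, horizontal axis) for the 33 tested probes, over the median (line) and the 5th to 95th percentile (grey) of all 23691 tested probes. The line rises towards dim levels; Wnt10a, both Wnt6 probes, Wnt11, Wnt10b, Fzd4 and the dimmer probes of Fzd3 and Tcf7 lie above the grey area, the brighter Tcf7 probe lies at its upper edge and the dimmer Sfrp1 probe at its lower edge, and the brighter Sfrp1 probe lies far below it. Of these, Wnt10b, Fzd4, both Tcf7 probes, the brighter Wnt6 probe and the dimmer Sfrp1 probe were not called.

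Of the 4 intracellular genes, 3 were tested with 5 probes. Limma called 0 of these probes, with 2 at an unadjusted p under 0.05. Over all tested probes 4.52 percent were called, a share at which 0 of 5 says little. Tcf7, a transcription factor that works with beta-catenin, had 2 tested probes that put 4T1-S above 4T1-A without overlap. The brighter one read 0.282 and 0.438 in 4T1-S, against 0.213 and 0.182 in 4T1-A (difference 0.83, SE 0.25). The dimmer one read 0.373 and 0.261 in 4T1-S, against 0.169 and 0.157 in 4T1-A (difference 0.93, SE 0.23). Neither was called. Lef1, its relative, read 0.208 and 0.235 in 4T1-S, against 0.168 and 0.192 in 4T1-A, a difference of 0.30 (SE 0.20). A dimmer Lef1 probe differed by 0.30 (SE 0.22), which was below its local median of 0.56. This dimmer probe was above background on 1 array of 4T1-A and so was tested through 4T1-S alone. Axin1, the scaffold of the complex that marks beta-catenin, read 1.26 and 1.02 in 4T1-S, against 1.09 and 1.01 in 4T1-A. Its arrays overlapped, and the sign of its difference of 0.11 (SE 0.20) turned with scaling to the median. Axin2, a widely used target of beta-catenin signalling, was above background on no array.

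Genes of the pathway outside the family were put in 3 lists. For the intracellular list, 61 probes of 32 genes were tested, and the median difference was 0.06. Limma called 1 higher and 1 lower, beside 2.17 and 2.35 percent of all tested probes. Prickle1, a planar polarity gene, read 1.64 and 1.95 in 4T1-S, against 0.644 and 0.910 in 4T1-A, a difference of 1.22 (SE 0.24, limma adjusted p = 0.0325). Tcf7l2, a Tcf factor, read 0.922 and 0.726 in 4T1-S, against 1.77 and 2.0 in 4T1-A at its brightest probe, a difference of -1.20 (SE 0.21, adjusted p = 0.0228). The other 3 Tcf7l2 probes differed by -0.07, -0.52 and 0.50 and were not called. Prickle1 lost its call without either 4T1-S array, without 4T1-A replicate 1 or with scaling to the median, and Tcf7l2 without either 4T1-S array. Over the alternatives their adjusted p lay between 0.00319 and 0.164 for Prickle1 and between 0.00682 and 0.139 for Tcf7l2. Ctnnb1, which encodes beta-catenin, read 19.3 and 22.5 in 4T1-S, against 23.0 and 24.7 in 4T1-A (difference -0.19, 95% interval -0.65 to 0.26, adjusted p = 0.577). Apc differed by 0.04 (interval -0.43 to 0.50, adjusted p = 0.932) and Gsk3b by -0.06 (interval -0.56 to 0.44, adjusted p = 0.884).

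For the list of surface and secretion genes, 42 probes of 26 genes were tested, and the median difference was 0.23. Limma called 2 higher and 3 lower, beside 2.17 and 2.35 percent of all tested probes. Scaling to the median gave 0 higher and 4 lower, with 2 higher and 12 lower at an unadjusted p under 0.05 by limma. Porcn, the enzyme that attaches the lipid to Wnt proteins, read 0.568 and 0.614 in 4T1-S, against 0.267 and 0.287 in 4T1-A, a difference of 1.09 (SE 0.19, adjusted p = 0.0216). Adgra2, a membrane protein known to assist Wnt7a and Wnt7b signals in brain vessels, read 0.234 and 0.393 in 4T1-S, against 0.0826 and 0.113 in 4T1-A, a difference of 1.65 (SE 0.29, adjusted p = 0.0235). Both were higher in 4T1-S without overlap. Gpc4, a glypican of the cell surface, read 0.0131 and 0.0122 in 4T1-S (not well above background), against 1.93 and 1.75 in 4T1-A. It was at least 32.1-fold lower at this probe (adjusted p = 2.09e-05) and at least 13.8-fold lower at its other called probe (adjusted p = 8.17e-05). Lgr6, a receptor of R-spondins, was not well above background in 4T1-S at its called probe (0.0698 and 0.0312) and read 0.190 and 0.456 in 4T1-A, at least 4.75-fold lower (adjusted p = 0.0255). The brighter Lgr6 probe differed by -0.93 and was not called (adjusted p = 0.0589). Porcn lost its call without either 4T1-S array, and Adgra2 and Lgr6 without 4T1-S replicate 2. Over the alternatives the adjusted p lay between 0.00511 and 0.133 for Porcn, between 0.000855 and 0.121 for Adgra2 and between 1.39e-07 and 0.135 for Lgr6.

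For the list of known target genes, 41 probes of 26 genes were tested, and the median difference was 0.03. Limma called 2 higher and 4 lower, beside 2.17 and 2.35 percent of all tested probes. The split was 2 and 7 with scaling to the median, and 2 and 2 with quantile normalization. Ccn4, a secreted matricellular protein first found as a Wnt1-induced gene, read 11.4 and 8.97 in 4T1-S, against 3.53 and 2.75 in 4T1-A, a difference of 1.70 (SE 0.23, adjusted p = 0.00678). Ccn5, its relative, read 0.248 and 0.270 in 4T1-S, against 0.0509 and 0.0729 in 4T1-A, where 1 of 2 arrays was above background. The Ccn5 difference was 2.09 (SE 0.23, adjusted p = 0.00278). Ccn4 and Ccn5 each lost their call in 1 alternative setting, at limma adjusted p of 0.069 and 0.0508. Nkd2, an inhibitor that binds Dishevelled, read 0.0323 and 0.0274 in 4T1-S (not well above background), against 0.353 and 0.370 in 4T1-A, at least 6.31-fold lower (adjusted p = 9.87e-05). These 3 genes kept their calls without any single array, as did both Gpc4 probes.

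Sox9, a transcription factor of progenitor cells, read 1.88 and 1.74 in 4T1-S, against 3.72 and 3.12 in 4T1-A (difference -0.91, adjusted p = 0.048). Id2, an inhibitor of helix-loop-helix factors, read 0.402 and 0.497 in 4T1-S, against 0.836 and 0.974 in 4T1-A at its called probe (difference -1.01, adjusted p = 0.0407), and its brighter probe differed by -0.99 without a call. Tnfrsf19 was not well above background in 4T1-S at its called probe, 0.0409 and 0.0315, against 0.0734 and 0.0989 in 4T1-A, at least 1.49-fold lower (adjusted p = 0.0314). These 3 calls depended on single arrays. Sox9 was called in all leave-one-out fits but those without either 4T1-S array or 4T1-A replicate 1, Id2 in the fit without 4T1-A replicate 1, and Tnfrsf19 in those without either 4T1-A array. The adjusted p lay between 0.0109 and 0.191 for Sox9, 0.00716 and 0.168 for Id2 and 0.00234 and 0.377 for Tnfrsf19 over the alternatives. The other Tnfrsf19 probe went the other way (difference 0.55, adjusted p = 0.15). Myc differed by 0.15 (95% interval -0.28 to 0.59, adjusted p = 0.652). Ccnd1, which encodes cyclin D1, read 23.0 and 23.8 in 4T1-S, against 24.2 and 22.2 in 4T1-A (difference 0.01, interval -0.43 to 0.45, adjusted p = 0.975).

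**Figure D4:**
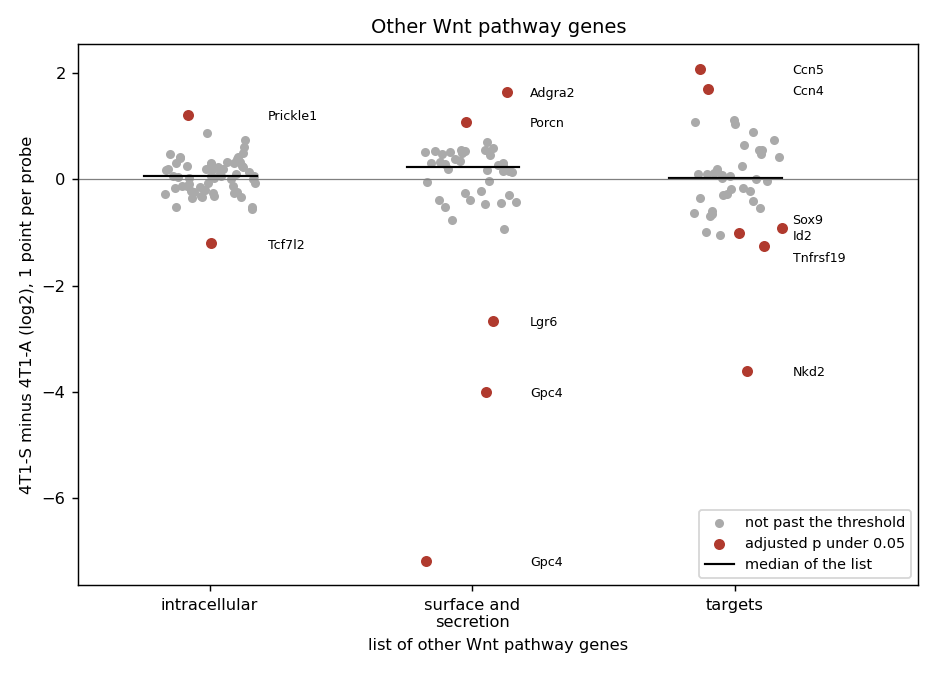
Difference between 4T1-S and 4T1-A (log2, vertical axis) of each tested probe in the 3 lists of other Wnt pathway genes (horizontal axis), with the median of each list as a bar; red points passed limma's adjusted p of 0.05 and carry the gene's name. Gpc4, Nkd2 and Lgr6 lie lowest, and their 4T1-S values were not well above background, so their folds are bounds.

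Genes beside Sfrp1, Wnt10a and Wnt11 were looked at after these values were known, by their order in RefSeq. Around Sfrp1, 13 tested probes of 9 neighbouring genes differed by between -0.75 and 0.53, with a median of 0.05, and limma called 0 of them, with 3 at an unadjusted p under 0.05. Around Wnt10a, 9 probes of 5 genes other than Wnt6 had a median of 0.31, and limma called 0, again with 3 at an unadjusted p under 0.05. The highest of these, a Stk36 probe at 2.34 (SE 0.97), had arrays that disagreed strongly. Around Wnt11, 16 probes of 7 genes had a median of 0.41. Limma called 5 higher and 0 lower, beside 2.17 and 2.35 percent of all tested probes. The called probes were 3 of Map6, a microtubule-binding protein (0.96, 1.35 and 0.96), and 2 of Dgat2, an enzyme of triglyceride synthesis (0.98 and 0.88). Wnt1 and Wnt10b are neighbours on chromosome 15 as well, with Wnt1 above background on no array.

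**Figure D5:**
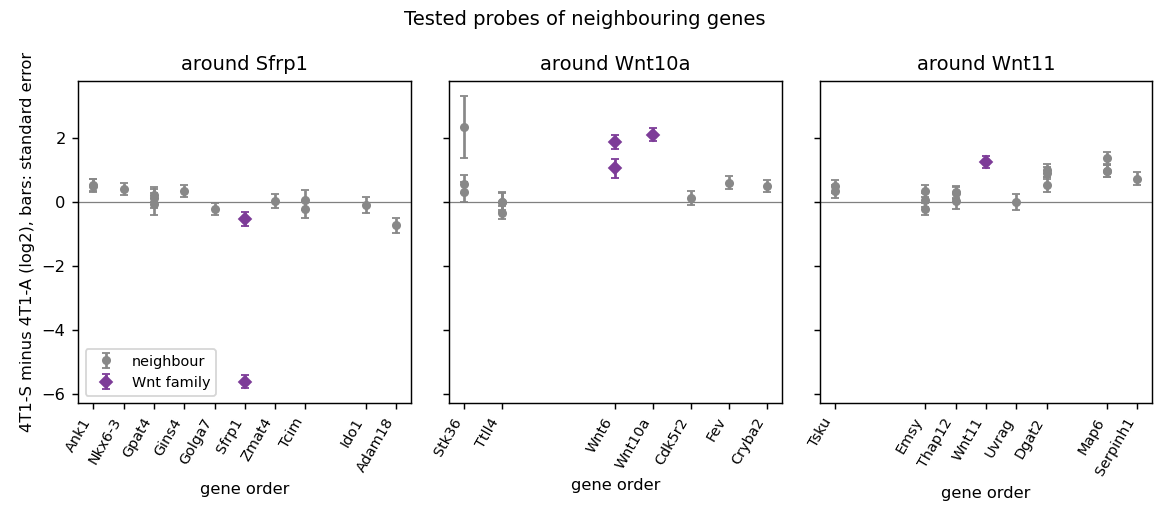
Difference between 4T1-S and 4T1-A (log2, vertical axis) with bars of 1 standard error for tested probes of neighbouring genes in RefSeq order (horizontal axis, not to scale), around Sfrp1, Wnt10a and Wnt11; diamonds are family genes and grey points their neighbours. The brighter Sfrp1 probe stands alone at -5.63, and the dimmer one, at -0.56, lies within the range of the neighbours. Map6 and Dgat2 lie above 0 beside Wnt11.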

How the data were processed

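RNA was measured on 4 one-colour (Cy3) Agilent arrays, 2 each of 4T1-S and 4T1-A, grouped by the sample titles. The authors extracted spot intensity values with Agilent Feature Extraction 9.1, per the submitters' processing notes. Per the file headers, this deposited intensity had the background subtracted and spatial trends removed within each array, with no scaling between arrays. The values of the deposited series table proved to be a linear ratio, the processed intensity over the array's 75th percentile, and it was used as an alternative. The genome build of the probes is not given in the sources used here.

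Each array's 75th percentile was 405 and 498 in 4T1-S, against 467.5 and 577 in 4T1-A. Outlier spots (5 to 9 per array, none of the Wnt family) were dropped, log2 values were taken after scaling, and spots of a probe were averaged. A probe with several spots counted as above background where at least 50 percent of its spots were. Gene names came from the file of 4T1-S replicate 2, because 47 names in that of 4T1-A replicate 1 differed, and that file also holds fewer digits. Of 41174 probes, 22944 were named through an accession, 6664 by symbol and 3108 by an older symbol in RefSeq's table of GRCm38.p6, and 8458 kept the file's name.

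Limma 3.58.1 was run (lmFit, then eBayes; 2-sided, 2 residual and 5.46 prior degrees of freedom) under R 4.3.3, with Benjamini-Hochberg adjustment over 23691 probes and a threshold of 0.05. The procedure was tested on simulated data. Folds against a sub-line with no array well above background are given as bounds. Before averaging, a dim value was raised to its array's lowest signal that counted as well above background, where it lay under it. For Wnt4 and Fzd8 no value lay under it, so the plain fold is given. These bounds do not take in the spread between arrays. The number of arrays limits the precision.

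The family's members and the pathway lists were chosen with earlier results of these data known. Every member is accounted for, with values where a probe passed the filter. From each list, up to 5 called genes per direction are named, plus Ctnnb1, Apc, Gsk3b, Tcf7l2, Myc and Ccnd1. Genes around Sfrp1, Wnt10a and Wnt11 were named after their values were seen. The alternatives were other scalings, normexp correction with an offset of 50, other filters, 1 probe per gene, a trended and robust fit, the series table, a replicate block and leaving out each array. Cyclic loess was chosen after seeing the data.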

Additional observations from a re-analysis of the deposited data

How the results depend on the processing

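No called difference of the family or the pathway lists changed sign under any alternative that was run. For the other probes, signs were not compared. Over all probes, the 1070 calls became 535 with normexp, 302 without the filter on background, 584 with probes above background on all 4 arrays, and between 419 and 1970 without single arrays (419 without 4T1-S replicate 2, 579 without 4T1-S replicate 1, 1970 without 4T1-A replicate 2). The 5 calls of the Wnt family became 3 with normexp, 2 without the filter, and between 3 and 6 without single arrays, with 3 without 4T1-S replicate 2. The 2 calls of the intracellular list became 1 with scaling to the median and 0 by limma without the filter (10 higher and 2 lower at an unadjusted p under 0.05). Without single arrays they lay between 0 and 3, with 0 without either 4T1-S array (3 higher and 3 lower at an unadjusted p under 0.05 by limma without replicate 1, and 4 and 2 without replicate 2) and 1 without 4T1-A replicate 1. The 5 calls of the surface and secretion list became 3 with normexp, 2 without the filter, 2 with probes above background on all 4 arrays (2 higher and 0 lower, with 3 lower at an unadjusted p under 0.05 by limma), and between 2 and 6 without single arrays, with 2 without 4T1-S replicate 2. Cyclic loess gave 1 higher and 4 lower there. The 6 calls of the target list became 1 without the filter, 2 with probes above background on all 4 arrays, and between 3 and 9 without single arrays, with 3 without 4T1-S replicate 2. Filters change the number of probes tested and leaving out an array removes 1 of 4 samples; beyond that the cause was not tested.

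Normexp shrank differences against dim values, to -3.70 for the brighter Gpc4 probe, -1.30 for Nkd2, 0.85 for Adgra2 and -0.87 for Lgr6. Scaling to the median ended the calls of Adgra2 and Porcn, and cyclic loess that of Adgra2. Scaling to the median moved the median of all probes to -0.18 and left 17 of the 27 family genes positive, against 21 in the reported values. The sub-lines share replicate numbers, but the labels do not say that a number pairs samples, and with 2 pairs the correlation of their deviations (0.44 over 23669 probes) does not settle it. A fit with a replicate block called 4672 probes over all, 14 of the family (13 higher, 1 lower), 6 of the intracellular list, 10 of the surface and secretion list and 18 of the target list.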

Other observations

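The file names of 2 further probes do not match the family's names although RefSeq pairs their accessions with family genes, and they enter no count above. The probe paired with Fzd5 read 0.161 and 0.177 in 4T1-S, against 0.206 and 0.234 in 4T1-A. The probe paired with Lrp6 read 0.0841 and 0.0663 in 4T1-S, against 0.130 and 0.0626 in 4T1-A, with overlapping arrays. The 10 spots of Wnt1 ranged from 0.0128 to 0.0514 and from 0.0290 to 0.0435 on the 4T1-S arrays, against 0.0135 to 0.0347 and 0.0121 to 0.0337 on the 4T1-A arrays, all not well above background.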
